A study of Oryza sativa with 6 samples.

Results

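Among the most abundant transcripts of rice roots, 20 entries stayed within a narrow range of their control level while the soil dried, and these high and unchanged root genes are described here. Values are FPKM (fragments per kilobase of transcript, scaled to the mapped fragments, a level corrected for length), and an entry is an assembled transcript locus that lists the RGAP gene loci it covers. An entry was chosen when its FPKM was 100 or more in all 3 groups and when both ratios to control, after 2 d and after 3 d of water deficiency (WD), lay from 25% below to 33% above 1, a range called the window here. Only entries that list a locus near the start of 7 chromosomes were taken, below 10.1 Mb on chromosome 1, 6.0 Mb on chromosome 2, 4.9 Mb on chromosome 3, 7.4 Mb on chromosome 5, 11.1 Mb on chromosome 6, 11.4 Mb on chromosome 8 and 5.1 Mb on chromosome 12. These regions hold 8457 of the 63985 entries of the series, and 67 of them reached 100 FPKM in all 3 groups. Of these 67, 20 are inside the window and 47 outside it, and unchanged means here only inside the window.

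The 6 libraries came from roots of 4-week-old seedlings of japonica rice, cultivar Chilbo, grown in pots of soil in an incubator. In the control group plants were watered throughout, and in the other groups irrigation was withheld for 2 d or for 3 d, with 2 libraries in each group. No genotype differed between the groups. The deposited tables give 1 FPKM per group, the authors' value pooled over its libraries, so no spread between libraries can be shown for any value, the depth of a library is unknown, and whether a ratio inside the window differs from 1 was not tested here. Because the members were chosen by these levels and ratios, both are given as a description. In roots taken whole, fewer cells of a type and less RNA per cell cannot be told apart.

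Locus names are shared less often inside the chosen regions. Of the entries over 1 FPKM in a group, 9.62% share a listed locus with another entry inside the regions, against 47.3% beyond them. The root label could not be checked against described markers: of 3 loci taken as root markers, LOC_Os03g01700 was listed at 921 FPKM in control roots, 7.18 FPKM in 2 d roots and 1.85 FPKM in 3 d roots, and LOC_Os02g02170 and LOC_Os02g02190 were under 0.1 FPKM throughout. No locus of the regions was described as a leaf gene. Descriptions were at hand mainly for entries that changed, so nothing is read from this absence.

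Genes that a plant cell uses at all times, for example those for ribosomes, the cytoskeleton and basic energy metabolism, are often called housekeeping genes. They tend to be abundant, and some serve as references to which the transcripts of other genes are scaled, a use that rests on their level staying the same under the treatment. FPKM is itself a relative measure, so a steady FPKM is not a steady number of molecules. Nor need it be a steady share of the summed FPKM, which rose under WD in the regions, as given below.

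Abundant entries were inside the window about as often as entries one level below them. Of the 67 entries at 100 FPKM or more in all groups, 29.9% were inside the window at both times. Of the 1181 entries of the regions whose lowest group was from 10 to under 100 FPKM, 30.4% were inside it, and of the 1450 entries from 1 to under 10 FPKM, 290 were. Over all 2698 entries at 1 FPKM or more in every group, which include the members, the share was 24.8%. At each time by itself, 44.8% of the abundant entries were inside the window after 2 d, against a background of 41.5% among the 2698, and 46.3% after 3 d, against a background of 33.0%. Among the 1181 entries from 10 to under 100 FPKM these shares were 48.5% after 2 d and 37.4% after 3 d.

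**Figure D1:**
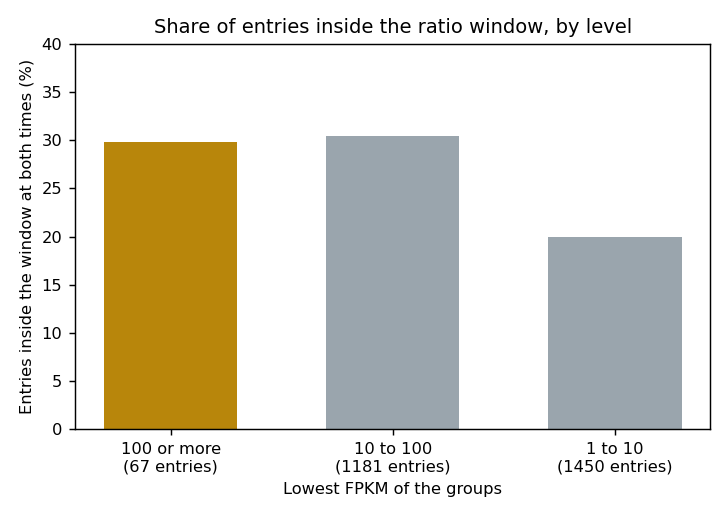
Share of entries (in percent) whose ratios to control were inside the window after 2 d and after 3 d of WD, by the lowest FPKM of the 3 groups, for entries that list a locus in the chromosome regions. The bars stand at 29.9% for 67 entries at 100 FPKM or more, 30.4% for 1181 entries from 10 to 100 FPKM and lower, at 290 of 1450 entries, from 1 to 10 FPKM.

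Many entries that were abundant in control roots were not so under WD. In control roots 132 entries of the regions reached 100 FPKM, and 65 of them were under 100 FPKM after 2 d or after 3 d, 53 at both times. The members are 15.2% of these 132 entries. Only 2 of the 132 left the abundant class while staying inside the window, so nearly all of the 65 lay outside it. A further 94 entries were under 100 FPKM in control and reached it under WD.

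The members ranged over 102 to 624 FPKM. Their median was 156 FPKM in control roots, 159 FPKM in 2 d roots and 144 FPKM in 3 d roots. Together they summed to 4433 FPKM in control roots, 4352 FPKM in 2 d roots and 4183 FPKM in 3 d roots. The summed FPKM of all 8457 entries of the regions was 87344 in control, 99485 after 2 d and 117464 after 3 d, so the members made up 5.08% of it in control, 4.37% after 2 d and 3.56% after 3 d. Their smaller share under WD came mostly from the larger sum of the other entries. Most of the rise in that sum was in a single abundant entry outside the window, LOC_Os01g05650. It had 402 FPKM in control roots, 11238 FPKM in 2 d roots and 26220 FPKM in 3 d roots.

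**Figure D2:**
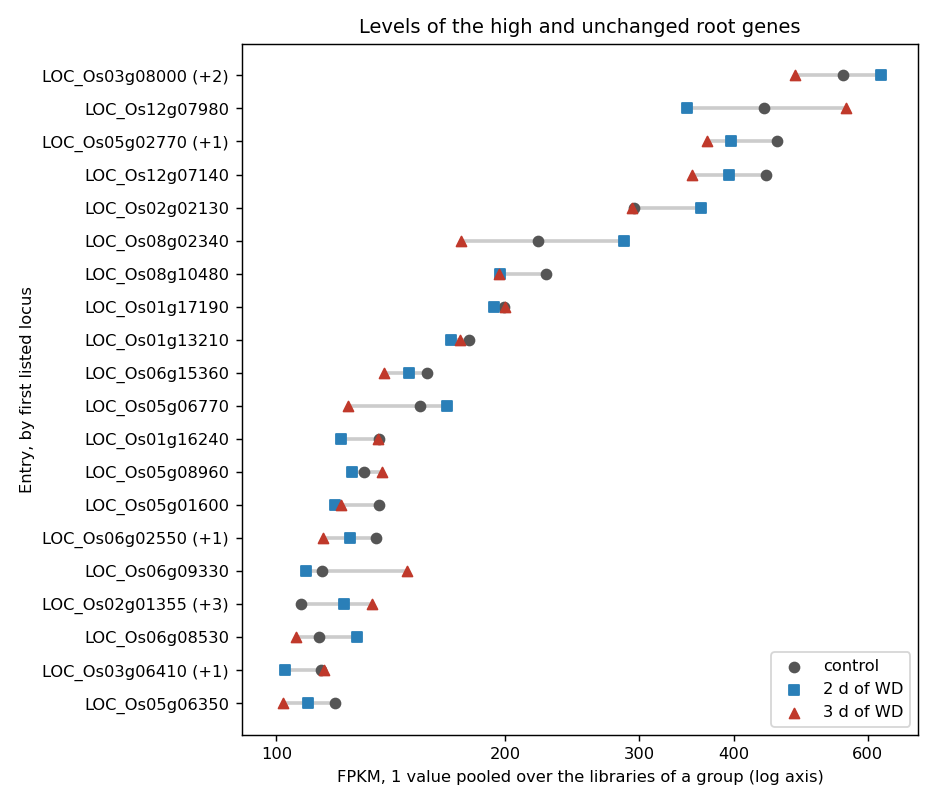
FPKM (log axis) of each of the 20 members in control (circles), after 2 d (squares) and after 3 d of WD (triangles), 1 value a group pooled over its libraries, ordered by geometric mean from 551 FPKM at the top, with grey lines from the lowest to the highest group. A number in brackets counts further loci of the entry. LOC_Os12g07980 and LOC_Os08g02340 have the longest lines, and the marks of LOC_Os01g17190 nearly coincide.

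The sources used here pair a description with 1 of the 28 loci that the members list, LOC_Os05g02770, a putative glycine-rich cell wall structural protein. Proteins of this class are structural parts of the plant cell wall. The tables that hold descriptions list entries that changed, LOC_Os05g02770 among them, so that steady loci lack one largely by construction. A separate entry that lists this locus alone fell under WD, as given below. All members are therefore named by locus, and no role is given to them.

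The steadiest member was LOC_Os01g17190, on chromosome 1 from 9886482 to 9902738, with 199.5 FPKM in control roots, 193 FPKM in 2 d roots and 199.8 FPKM in 3 d roots. Its highest group was 1.03 times its lowest. Next to it in level stood LOC_Os01g13210, on the same chromosome from 7362443 to 7366111, with 179 FPKM in control roots, 170 FPKM in 2 d roots and 174 FPKM in 3 d roots. LOC_Os05g08960, on chromosome 5 from 4958250 to 4964959, had 130 FPKM in control roots, 126 FPKM in 2 d roots and 138 FPKM in 3 d roots. These are the 3 members within 10% of control at both times. This narrower limit was met by 3 of all 67 abundant entries, the same 3, and by 114 of the 2698 entries at 1 FPKM or more. Over the 20 members the median ratio of the highest to the lowest group was 1.19, against 1.73 among the 2698, a gap that the choice of members sets.

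By the order of the groups the members fell into 5 sets, which are used here only to arrange them, since no error is given for these small differences. The largest set, of 6 members, was lower after 2 d than in control and lower still after 3 d. In it is the entry that lists LOC_Os05g02770, the glycine-rich protein locus, together with LOC_Os05g02780, on chromosome 5 from 997526 to 1002936. To which of these loci its reads belong is not known. This entry had 456 FPKM in control roots, 397 FPKM in 2 d roots and 369 FPKM in 3 d roots. LOC_Os12g07140, on chromosome 12 from 3498501 to 3501959, was close to it in level and course, with 441 FPKM in control roots, 394 FPKM in 2 d roots and 352 FPKM in 3 d roots. Their ratios to control in 3 d roots were 0.81 and 0.80.

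At about 200 FPKM, LOC_Os08g10480, on chromosome 8 from 6158022 to 6161146, had 226 FPKM in control roots, 197 FPKM in 2 d roots and 196 FPKM in 3 d roots, so that the WD groups nearly coincide. LOC_Os06g15360, on chromosome 6 from 8719588 to 8726682, had 158 FPKM in control roots, 149 FPKM in 2 d roots and 138 FPKM in 3 d roots. The set is completed by a pair of entries near the FPKM minimum. The entry listing LOC_Os06g02550 and LOC_Os06g02555, on chromosome 6 from 884781 to 896376, had 135 FPKM in control roots, 125 FPKM in 2 d roots and 115 FPKM in 3 d roots. LOC_Os05g06350, on chromosome 5 from 3251079 to 3256096, had 119 FPKM in control roots, 110 FPKM in 2 d roots and 102 FPKM in 3 d roots, the lowest 3 d value of all members.

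A second set of 3 members had its lowest value after 2 d and lay between that value and control after 3 d. Besides LOC_Os01g13210 it holds LOC_Os01g16240, on chromosome 1 from 9194657 to 9198962, with 136.3 FPKM in control roots, 122 FPKM in 2 d roots and 136.1 FPKM in 3 d roots, so that control and 3 d roots were almost equal. LOC_Os05g01600, on chromosome 5 from 354129 to 356637, had 137 FPKM in control roots, 119 FPKM in 2 d roots and 122 FPKM in 3 d roots, and stayed about as far below control after 3 d as after 2 d.

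In 5 members the level was above control after 2 d and below it after 3 d. The most abundant member of all is among them, the entry listing LOC_Os03g08000, LOC_Os03g08010 and LOC_Os03g08020, on chromosome 3 from 4086040 to 4127084, with 556 FPKM in control roots, 624 FPKM in 2 d roots and 482 FPKM in 3 d roots. LOC_Os02g02130, on chromosome 2 from 633641 to 635608, had 295 FPKM in control roots, 362 FPKM in 2 d roots and 294 FPKM in 3 d roots, so that only the 2 d group stood apart. The widest course was that of LOC_Os08g02340, on chromosome 8 from 903121 to 934625, with 221 FPKM in control roots, 287 FPKM in 2 d roots and 175 FPKM in 3 d roots. LOC_Os05g06770, on chromosome 5 from 3535335 to 3536194, is the member with the shortest listed span, 860 bp, and had 155 FPKM in control roots, 168 FPKM in 2 d roots and 124 FPKM in 3 d roots. The last of the 5, LOC_Os06g08530, on chromosome 6 from 4212353 to 4218603, had 114 FPKM in control roots, 128 FPKM in 2 d roots and 106 FPKM in 3 d roots.

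The opposite order, below control after 2 d and above it after 3 d, was found in 5 members. In LOC_Os01g17190 and LOC_Os05g08960 the differences were small, as given above. LOC_Os12g07980, on chromosome 12 from 4050777 to 4054305, is the second most abundant member, with 438 FPKM in control roots, 347 FPKM in 2 d roots and 563 FPKM in 3 d roots. LOC_Os06g09330, on chromosome 6 from 4685923 to 4695316, had 115 FPKM in control roots, 110 FPKM in 2 d roots and 149 FPKM in 3 d roots, so that only the 3 d group stood apart. The entry listing LOC_Os03g06410 and LOC_Os03g06420, on chromosome 3 from 3200254 to 3211598, had 115 FPKM in control roots, 103 FPKM in 2 d roots and 116 FPKM in 3 d roots.

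A single member was above control at both times. It lists LOC_Os02g01355, LOC_Os02g01360, LOC_Os02g01365 and LOC_Os02g01370, the largest number of loci of any member, on chromosome 2 from 198871 to 209337. Its level was 108 FPKM in control roots, 123 FPKM in 2 d roots and 133 FPKM in 3 d roots.

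Counted over the sets, 14 of the 20 members were below control after 2 d and 14 after 3 d, 9 of them at both times. Among the 2698 entries at 1 FPKM or more 44.8% were below control after 2 d, 45.9% after 3 d and 38.3% at both times, and nothing is read from the difference, because the window was placed on the same ratios. For the members the median ratio to control was 0.95 in 2 d roots and 0.91 in 3 d roots. The median log2 ratio of all entries of the series over 4 FPKM was 0.08 after 2 d and 0.17 after 3 d rather than 0. Relative to that shift, the members' median was 0.89 times control in 2 d roots, where 14 of 20 were below 1, and 0.81 times in 3 d roots, where 17 of 20 were, and 15 of the 20 would still be inside the window. With each group scaled to its summed FPKM without the 2 highest entries of under 200 bp, 14 and 17 were again below 1, and 13 of the 20 would still be inside. Both scalings divide every ratio by a number above 1, so they could only lower these medians. Which entries count as unchanged depends on the scaling.

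The rule did not set the ratio of 3 d to 2 d directly, though it bounds it. This ratio was within the same limits in 16 of the 20 members, 44 of all 67 abundant entries and 62.3% of the 2698 entries. Nothing is read from the higher share of the members, because the bounds set by the rule favour it. The exceptions among the members are LOC_Os08g02340 with a ratio of 0.61, LOC_Os05g06770 with 0.74, LOC_Os06g09330 with 1.36 and LOC_Os12g07980 with 1.62. All of these were on opposite sides of control at the 2 times. In LOC_Os08g02340 and LOC_Os12g07980 the highest group was 1.64 and 1.62 times the lowest. The median of the 2698 entries on that measure was 1.73. This pair was thus inside the window at both times only near its edges. Between the WD groups the pair moved nearly as much as a typical expressed entry moved over all groups.

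The edges of the window lie within a continuous range of ratios. After 2 d the lowest ratios of members were 0.79 (LOC_Os12g07980), 0.87 (LOC_Os05g02770 with LOC_Os05g02780) and 0.87 (LOC_Os08g10480), and the nearest abundant entry below it, LOC_Os01g03914, had 0.74. The highest member at this time, LOC_Os08g02340, was 29.9% above control, and LOC_Os01g16890, just outside, 33.03% above it, with 237 FPKM in control roots, 315 FPKM in 2 d roots and 307 FPKM in 3 d roots. After 3 d the lowest ratios of members were 0.79 (LOC_Os08g02340), 0.80 (LOC_Os12g07140) and 0.80 (LOC_Os05g06770), with LOC_Os06g04030 at 0.745 just outside, and the highest of a member was 1.30 (LOC_Os06g09330), with LOC_Os02g03860 at 1.35 just outside. At the FPKM minimum, LOC_Os02g08090 was inside the window but had 97.9 FPKM in control roots, 116 FPKM in 2 d roots and 107 FPKM in 3 d roots.

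The 47 abundant entries outside the window show how far some other transcripts at 100 FPKM or more in all groups moved. Of them 34 were above the window at one or both times, 17 at both, and 13 were below it, 9 at both. These shares were not computed over all entries, so no excess of either side is read from them. The minimum in every group also left out 65 entries abundant in control and 94 that reached 100 FPKM only under WD. The summed FPKM of the 47 entries was 18324 in control, 30931 after 2 d and 46833 after 3 d, against the nearly level sum of the members. Most of this rise came from a single entry, LOC_Os01g05650, so the sum does not describe the 47 entries in general. The largest ratios were those of LOC_Os01g05650, a putative metallothionein (a small metal-binding protein), with 402 FPKM in control roots, 11238 FPKM in 2 d roots and 26220 FPKM in 3 d roots. LOC_Os08g03290, a putative glyceraldehyde-3-phosphate dehydrogenase, an enzyme of glycolysis, had 400 FPKM in control roots, 1949 FPKM in 2 d roots and 1767 FPKM in 3 d roots. The gene for the hydrophobic protein OsRCI2-6 (LOC_Os05g04700) had 196 FPKM in control roots, 1163 FPKM in 2 d roots and 980 FPKM in 3 d roots.

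The lowest ratios were those of LOC_Os06g13680, a putative B12D protein, with 1486 FPKM in control roots, 249 FPKM in 2 d roots and 209 FPKM in 3 d roots, and of LOC_Os06g09450, a putative sucrose synthase, an enzyme that cleaves sucrose, with 1461 FPKM in control roots, 335 FPKM in 2 d roots and 224 FPKM in 3 d roots. These control levels were above that of any member, while the control level of the metallothionein was within the members' range. In all, 23 entries of the regions were at 200 FPKM or more in all groups, of which 5 are members.

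**Figure D3:**
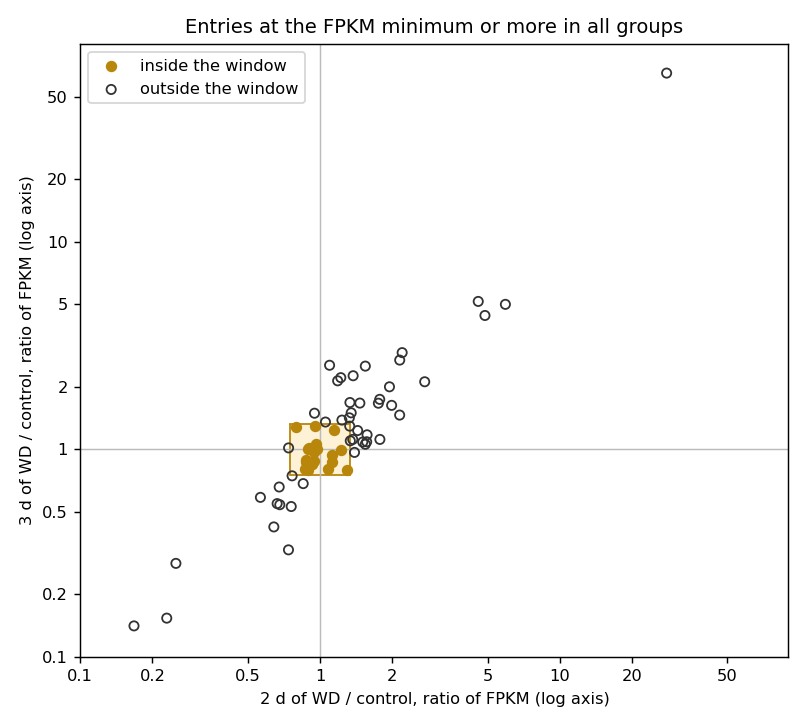
Ratio of FPKM after 2 d of WD to control (horizontal, log axis) against the ratio after 3 d of WD to control (vertical, log axis) for the 67 entries of the regions at 100 FPKM or more in all 3 groups. Filled points are the 20 members inside the shaded window, from 25% below to 33% above control, open points the 47 others, and both axes share the control value. The open points reach 27.9 and 65.2 at the upper right and 0.17 and 0.14 at the lower left.

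The members lie on all 7 chromosomes of the rule. Chromosome 5 has 5 of them among 13 abundant entries, chromosome 6 has 4 of 12, chromosome 1 has 3 of 13, and chromosomes 2, 3, 8 and 12 have 2 each, of 9, 8, 8 and 4. The median listed span was 5831 bp for the members and 4894 bp for the abundant entries outside the window. Entries that list a single locus were 15 of 20 members and 41 of 47 others, and 4 of 20 members and 3 of 47 others shared a locus name with another entry. With all abundant entries that share a name left out, 16 of 60 abundant entries were inside the window.

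Other entries with exactly the coordinates of a member were found for 9 of the 20. The clearest contrast is at the glycine-rich protein locus, where a further entry that lists LOC_Os05g02770 alone had 67.1 FPKM in control roots, 23.9 FPKM in 2 d roots and 15.9 FPKM in 3 d roots. It was thus at 0.36 of control after 2 d and 0.24 after 3 d, while the member at the same coordinates, which lists LOC_Os05g02780 too, was at 0.87 and 0.81. The tables do not say to which of the 2 loci the reads of the member belong, nor how reads were divided between the entries.

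At the coordinates of the most abundant member, LOC_Os03g08050 forms an entry of its own, with 178 FPKM in control roots, 269 FPKM in 2 d roots and 193 FPKM in 3 d roots. Its ratio after 2 d was 1.51, outside the window, against 1.12 for the member, and both had their highest value after 2 d. The other entries that repeat a member's own locus name, at LOC_Os12g07980, LOC_Os12g07140 and LOC_Os01g16240, were all under 1 FPKM in every group. LOC_Os08g02350 with LOC_Os08g02354, at the coordinates of LOC_Os08g02340, had 12.5 FPKM in control roots, 25.6 FPKM in 2 d roots and 31.7 FPKM in 3 d roots. It was therefore highest after 3 d, when the member was lowest.

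Neighbouring entries were not part of the rule. For each member the nearest entry on either side with other coordinates, a listed locus and at least 1 FPKM in all groups was taken, 40 in all, at a median distance of 4311 bp (162 to 342667 bp). Of these neighbours 13, or 32.5%, were inside the window at both times, against 24.8% of all entries at 1 FPKM or more. Both neighbours were inside it for 2 members, 1 neighbour for 9 and none for 9. After 3 d 14 of the 40 neighbours were inside the window, against 33.0% of all entries at 1 FPKM or more. Another 16 neighbours were above it and 10 below it, and the ratios of neighbours ran from 0.03 to 37.8. The shares above and below the window over all entries were not computed. Some steady entries thus had a nearest such neighbour that moved far, but nothing particular to the members is read from these counts.

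The neighbour with the lowest ratio after 3 d was beside LOC_Os12g07140, where LOC_Os12g07150, a putative amidase family gene 162 bp away, had 45.3 FPKM in control roots, 12.8 FPKM in 2 d roots and 1.54 FPKM in 3 d roots. Beside LOC_Os05g06770 lies LOC_Os05g06780, described as LTPL104, a protein of the protease inhibitor, seed storage and lipid transfer family, with 602 FPKM in control roots, 125 FPKM in 2 d roots and 64.2 FPKM in 3 d roots. Control roots thus held more of the neighbour than of the member, and 3 d roots less. In the other direction, LOC_Os05g08970 beside LOC_Os05g08960 had 1.79 FPKM in control roots, 47.8 FPKM in 2 d roots and 67.8 FPKM in 3 d roots, and LOC_Os08g10500 beside LOC_Os08g10480 had 16.9 FPKM in control roots, 93.5 FPKM in 2 d roots and 128 FPKM in 3 d roots.

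**Figure D4:**
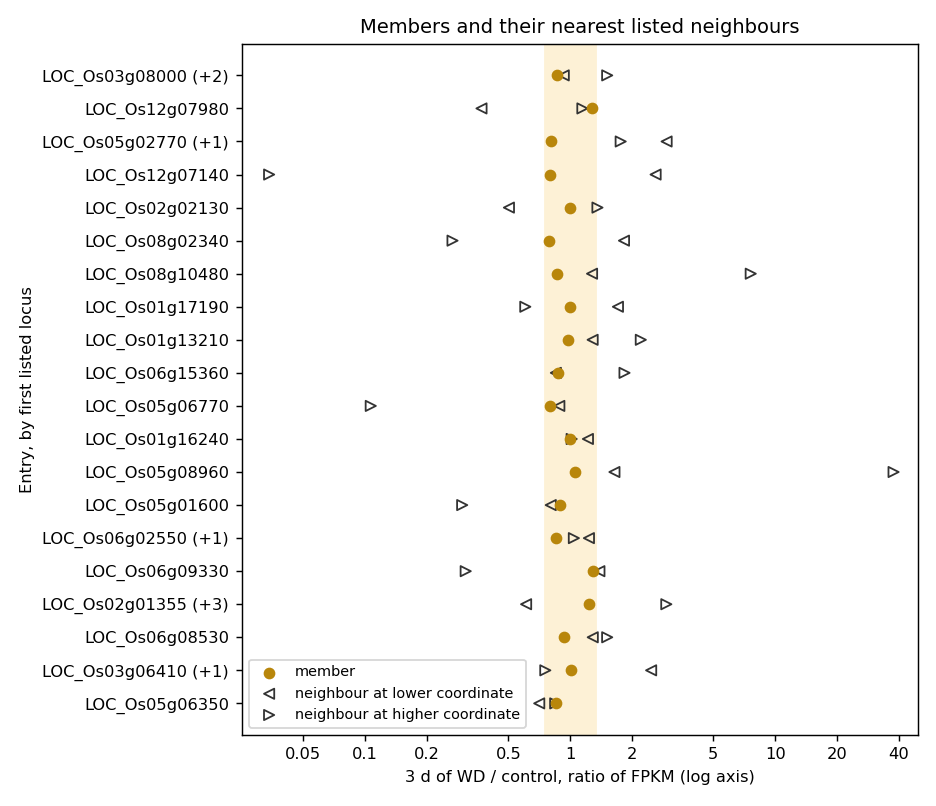
Ratio of FPKM after 3 d of WD to control (log axis) of each of the 20 members (filled circles) and of its nearest listed neighbours at the lower and the higher coordinate (open triangles), with the window from 25% below to 33% above control shaded. Neighbours run from 0.03 beside LOC_Os12g07140 to 37.8 beside LOC_Os05g08960, and 14 of the 40 are inside the window at this time.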

How the data were processed

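Root RNA-Seq of 6 libraries, 2 each of control, 2 d and 3 d of WD, was used. The authors checked the paired-end reads with FastQC, trimmed them with Cutadapt and Trim Galore, mapped them with TopHat to IRGSP 1.0, used RGAP gene features and compared groups with Cuffdiff. The sources used here give no tool versions. The deposited FPKM values are pooled over the libraries of a group, with 0 per-library value columns used, so the depth is unknown, no interval is given for a level, and no test was run. The 2 tables also hold the authors' fold changes, test statistics, p-values and q-values, which were not used.

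Ratios were computed from FPKM without a pseudocount. Members and lists were chosen with earlier results of these data known. The planned lists by gene description and the promoter comparison were not run, because descriptions were paired with 1 of the 28 member loci and the gene list of another assembly holds no RGAP locus names. The naming rule (highest members, edges, steadiest and widest, extremes outside) was extended to all 20 members. Neighbours were examined after the values were seen, and those named were chosen then. The code that applies the rule was checked on simulated entries placed clearly inside or outside the window. This check says nothing about the choice of members in these data. Alternatives changed the window, FPKM minimum, pseudocount, scaling, names, places and times. Python 3.11.15, pandas 2.3.3, numpy 2.4.6, scipy 1.17.1 and matplotlib 3.10.9 were used.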

Additional observations from a re-analysis of the deposited data

How the results depend on the processing

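Against 20 members, 29.9% of the abundant entries, and median ratios of 0.95 after 2 d and 0.91 after 3 d, the members numbered 33 with a window from 0.67 to 1.5 (49.3% of the abundant entries, 3 d median 1.00), 70 with a minimum of 50 FPKM (medians 1.06 and 1.05), 5 with a minimum of 200 FPKM (2 d median 0.89), 741 with no minimum (17.5%, medians 1.02 and 1.01) and 73 without place limits (medians 1.05 and 0.97). Each of these changes which entries can pass, by construction. With FPKM scaled to the sum without the short entries, 22 entries passed, 13 of them members, and their 2 d median was 1.02. Centring on the median also gave 22, of which 15 are members. The other settings gave 15 to 21 members. A median counts as moved here beyond 0.05, since no spread is known, and the share beyond its exact 95% binomial interval, from 19.3% to 42.3%. That interval treats the entries as independent and does not measure the spread between libraries, so it serves only as a label. No paired analysis was possible because the libraries of a group were pooled before deposit, and leaving out a replicate was not run for the same reason. The unknown depth limits every value.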

Other observations

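Beyond the place limits, where names are shared more often, 53 of 181 entries at 100 FPKM or more in all groups (29.3%) met the same window, and 32 of the 53 share a listed locus with another entry. Their median geometric mean over the groups was 157 FPKM, against 148 FPKM for the members, and the highest was 1321 FPKM. Of the entries of the regions that list no locus, 2 reached 100 FPKM in all groups and neither was inside the window. The study scaled its qRT-PCR to rice ubiquitin 5 (LOC_Os01g22490). The entry listing that locus lies beyond the place limit, on chromosome 1 from 12645514 to 12650014, and was at 0.379 FPKM in control roots, 0.290 FPKM in 2 d roots and 0.265 FPKM in 3 d roots. Whether the reads of that gene were placed under this name was not tested.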
